A study of Mus musculus with 2 samples.

Results

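The *Cspg4*-positive cells are cultured mouse brain pericytes (PCs) at passage 5 (PC5) that were chosen by their measured UMIs, the unique molecular identifiers that tag single captured RNA molecules. A cell was taken when more than 1000 genes had a UMI, under 20% of its UMIs came from mitochondrial genes, and it held at least 1 *Cspg4* UMI and 0 *Rgs5* UMIs. These were 981 of the 9950 kept PC5 cells (9.86%, 9.28 to 10.5) and of 15513 barcodes in the series. PC5 and passage 20 (PC20) were each sequenced as 1 droplet library of single cells, both from brains of 6 wild-type female C57BL/6N mice aged 6 to 8 weeks. The sources used here name no transgene, cell sort or drug for either group. Cells were seeded after papain digestion on collagen, grown in endothelial medium at first and then in pericyte medium, so that neither library was selected on a marker. By the methods of the study the passages came from separate isolations, while the series description speaks of a single one, and passage and isolation cannot be told apart in values set side by side.

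*Cspg4* encodes NG2, a membrane proteoglycan that carries chondroitin sulfate chains. NG2 is used to mark pericytes and smooth muscle cells of small vessels and, in brain tissue, the precursors of oligodendrocytes. Its outer part binds collagen VI, growth factors and integrins, its inner tail binds PDZ proteins, and metalloproteases cut it from the surface. *Rgs5*, which the rule required to be absent, encodes a regulator of G protein signalling that is high in pericytes in tissue.

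The comparison cells came from the same library. For each *Cspg4*-positive cell, 3 PC5 cells with 0 *Cspg4* and 0 *Rgs5* UMIs were taken that were nearest to it in total UMIs, each used once, which gave 2943 matched cells. Median depth was 27706 UMIs and 5054 genes in *Cspg4*-positive cells and 27703 UMIs and 4987 genes in matched cells, against 21008 UMIs over all 8687 cells without either RNA. The median gap between a cell and its match was 5 UMIs, but in 92 pairs (3.13%) it exceeded 5% of the depth. The median mitochondrial share was 2.50% in the *Cspg4*-positive and 2.42% in the matched cells, and the ribosomal protein share 30.7% and 31.9%. As an alternative, ratios were also computed on UMI totals without these genes. Otherwise the part of these shares in the results was not tested.

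Levels are given as CPM, the UMIs of a gene summed over a group of cells per 1000000 UMIs of that group. The log2 ratio is the log2 of CPM in *Cspg4*-positive over matched cells, so that positive values are higher in *Cspg4*-positive cells. Parentheses hold 95% intervals, exact Poisson for CPM, conditional binomial for ratios and Clopper-Pearson for shares of cells. They cover counting error only and not the spread between cells or cultures. Cells of 1 library are not replicates, so no test was made and "higher" and "lower" refer to these cells only. A gene counted as measured with a UMI in at least 10% of either group, and as past the threshold at a ratio of 1.5.

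*Cspg4* (ENSMUSG00000032911) lies on the plus strand of chromosome 9 from 56865033 to 56899870 on GRCm38, and no other annotated gene overlaps it. Its RNA was sparse. The kept PC5 cells held 1237 *Cspg4* UMIs, of which 1210 were in the selected cells. Of these cells, just inside the rule, 817 had 1 *Cspg4* UMI, 124 had 2, 25 had 3, 9 had 4, 2 had 5 and 4 had 6, and just outside it 8946 kept cells had 0. If the same UMIs were spread over cells only in proportion to depth, 1150 cells would be reached and 4.50 cells would hold 3 or more. The observed numbers over all kept cells were 1004 and 41, which describes the counts that the rule itself used.

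The share of cells with a *Cspg4* UMI followed sequencing depth. With the cells cut into 10 equal groups by depth, it was 2.91% (1.96 to 4.16) in the shallowest (median 6561 UMIs), and in the deepest (median 39440) it was 23.0% (20.4 to 25.8). The level corrected for depth also differed between groups, from 2.90 CPM (2.02 to 4.03) next to the shallowest, which had 5.06 CPM, to 7.57 CPM (6.75 to 8.47) in the deepest. After each cell was thinned to 9500 UMIs the rule found 398 of 9020 cells (4.41%). The cells without a *Cspg4* UMI are therefore cells in which none was captured at this depth, not cells shown to lack the RNA.

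**Figure D1:**
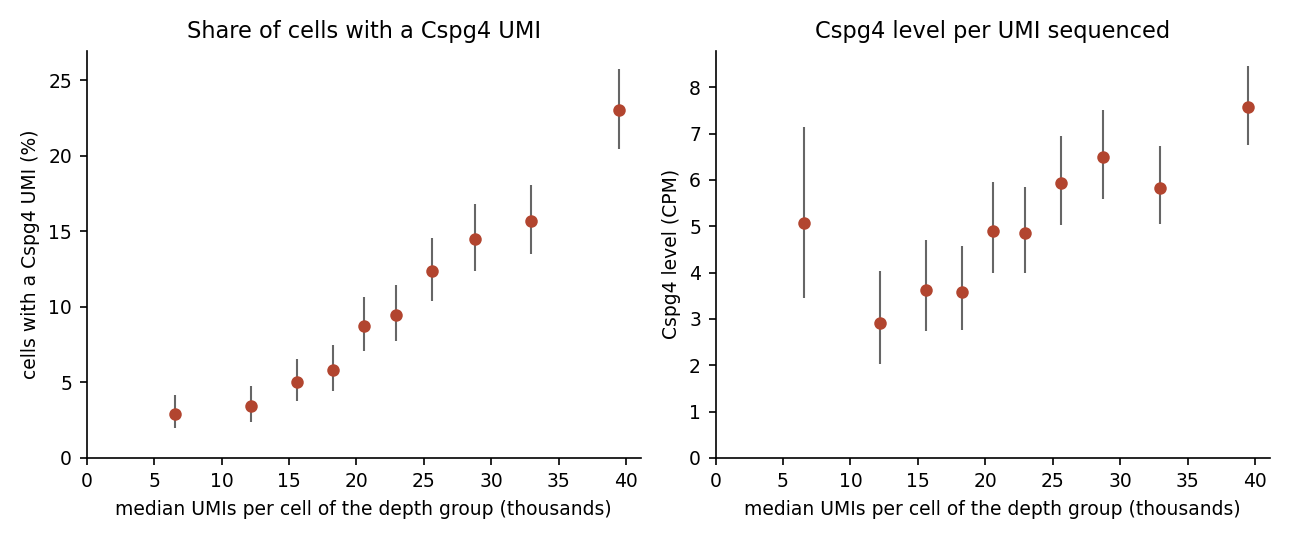
Share of kept PC5 cells with a *Cspg4* UMI in percent (left) and *Cspg4* level in CPM (right) for 10 equal groups of the cells by depth, placed at each group's median UMIs per cell. Points are values of 995 cells each and bars 95% counting intervals, and the share runs from 2.91% in the shallowest to 23.0% in the deepest group.

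The series holds no cell type that surely lacks *Cspg4*, so a background share could not be read within PC5. Among the 679 PC5 barcodes that failed the filter, 5 (0.736%) had a *Cspg4* UMI. These barcodes failed for few genes or a high mitochondrial share and were not matched in depth to kept cells. Since the share of cells with a *Cspg4* UMI followed depth, their share gives no background. In PC20 the same rule found 16 of 4749 cells (0.337%, 0.193 to 0.547) with 19 *Cspg4* UMIs, at a median of 33424 UMIs per cell, deeper than in PC5. No *Rgs5* UMI was seen in PC20. The libraries shared 20 barcodes, and 1 of the 981 cells was among them.

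*Rgs5* UMIs were not more frequent beside *Cspg4*. Of all 1004 *Cspg4*-positive cells 23 (2.29%, 1.46 to 3.42) also held *Rgs5*, and of 3012 *Cspg4*-negative cells matched to them in depth 90 (2.99%, 2.41 to 3.66) did. The rule removed these 23 cells.

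The genes furthest apart included the smooth muscle contractile genes *Acta2*, *Tagln* and *Actg2* on the higher side, and *Igfbp3*, the chemokine gene *Ccl8* and the retinoic acid enzyme gene *Aldh1a2* on the lower side. Of 9724 measured genes, 28 (0.288%) were past 1.5-fold higher and 16 (0.165%) past 1.5-fold lower in *Cspg4*-positive cells. Of the 28, 15 counted as measured through the *Cspg4*-positive cells only, and 4 of the 16 through the matched cells only, so that those entered by a difference in the share of cells with a UMI. With such small shares 0 genes past the threshold is near what any list of 20 genes or fewer would hold, and a count of 0 is given for the lists as a description and not as a sign that they stand apart from other genes. The differences were small as a whole. The median log2 ratio was 0.04, with 6217 genes above and 3507 below 0, and 3 genes higher and 0 lower passed 2-fold.

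**Figure D2:**
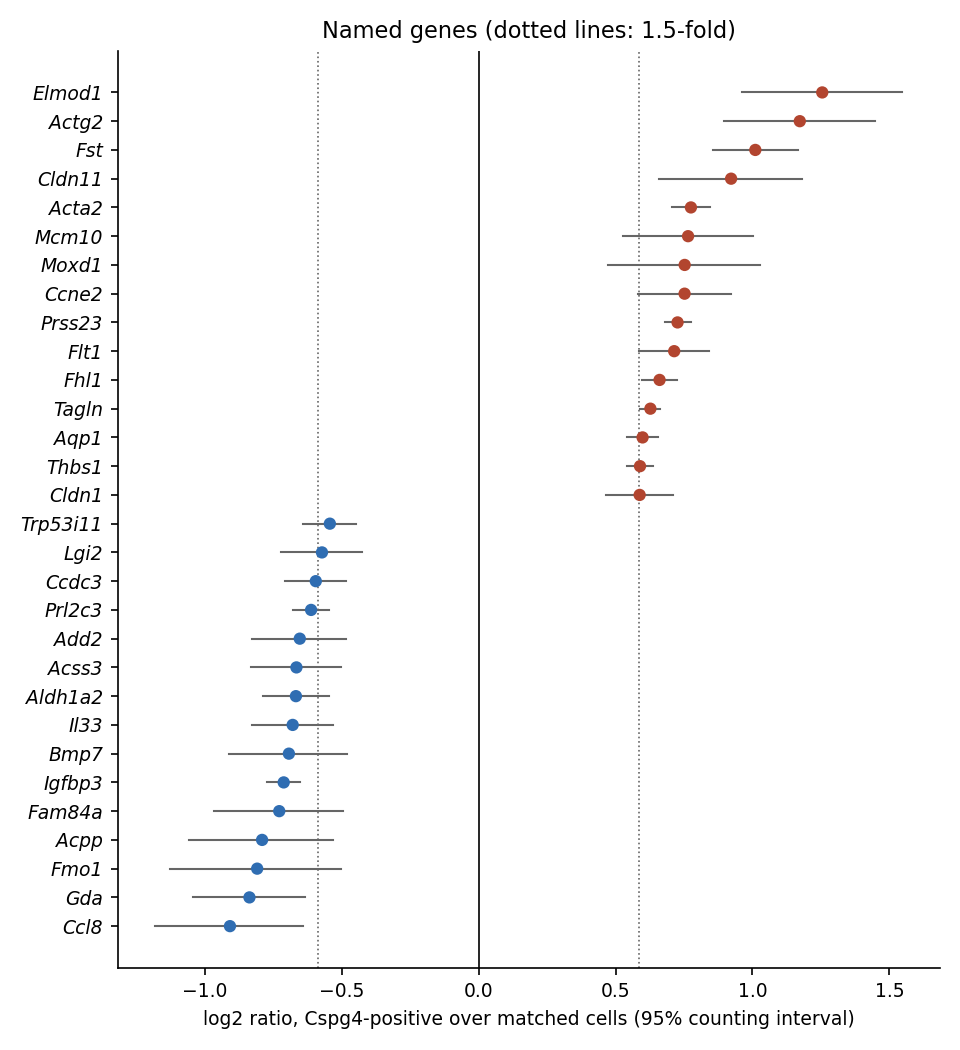
The log2 ratio of *Cspg4*-positive over matched cells for the 15 genes with the highest lower bound and the 15 with the lowest upper bound of the interval. Points are ratios of summed UMIs, bars 95% counting intervals and dotted lines 1.5-fold, and the ratios run from 1.3 for *Elmod1* to -0.91 for *Ccl8*.

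Of the 15 contractile genes 9 were measured. *Acta2* and *Tagln*, measured in both groups, passed 1.5-fold higher, where 0.288% of all measured genes did. *Actg2* passed it too but was measured through the *Cspg4*-positive cells only, and 0 passed it lower. *Acta2* (ENSMUSG00000035783, chromosome 19, 34241090 to 34255590, minus strand) encodes smooth muscle alpha-actin. Its level was 99 CPM (95.3 to 103) in *Cspg4*-positive and 57.8 CPM (56.2 to 59.5) in matched cells. An *Acta2* UMI was found in 58.2% (55.0 to 61.3) and 46.0% (44.2 to 47.8) of them. The log2 ratio was 0.78 (0.71 to 0.84), and the median cell held 0.348 *Acta2* UMIs per 10000 against 0 among matched cells. The ranges of single cells overlapped fully, with the highest at 32.8 per 10000 among *Cspg4*-positive and at 48.8 among matched cells.

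*Tagln* (ENSMUSG00000032085, chromosome 9, 45929619 to 45936058, minus strand) encodes transgelin, which binds actin filaments in smooth muscle. It had 325 CPM (318 to 331) in *Cspg4*-positive and 210.2 CPM (207 to 213) in matched cells, a log2 ratio of 0.63 (0.59 to 0.66). The median cell held 1.5 against 0.953 UMIs per 10000. *Actg2* (chromosome 6), the gamma-actin of visceral smooth muscle, was rare in both groups at 7.0 and 3.11 CPM, and the log2 ratio was 1.17 (0.90 to 1.45). Such UMIs were found in 10.8% of *Cspg4*-positive and 5.78% of matched cells, and 29.2% of them in the *Cspg4*-positive group lay in the top 1% of cells.

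The other measured contractile genes were closer to equal. *Myl9* (myosin light chain), *Smtn* (smoothelin), *Tpm1* and *Tpm2* (tropomyosins) and *Cald1* (caldesmon, the most abundant of the list) had log2 ratios between 0.05 and 0.18, and *Synpo2* (synaptopodin 2) had -0.17 (-0.46 to 0.11). Below the detection limit, *Cnn1* (calponin) had 32 UMIs in *Cspg4*-positive and 44 in matched cells, a log2 ratio of 1.12 (0.41 to 1.81), and *Myocd* (myocardin, a coactivator of smooth muscle genes) had 25 and 26, a log2 ratio of 1.52 (0.67 to 2.37). *Lmod1* (leiomodin) had 0.48, *Myh11*, the smooth muscle myosin heavy chain, had 5 and 16 UMIs, and *Mylk* (myosin light chain kinase) had 18 and 82. *Sncg* had 3 and 1. Thus *Myh11*, a defining gene of mature smooth muscle, was close to 0 in both groups. The 15 genes summed to 2082 CPM against 1831 CPM, a log2 ratio of 0.19 (0.17 to 0.20), and without *Cald1* to 0.28. The median over the 9 measured genes was 0.16.

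These values differed with the cells taken. In the shallowest of 3 equal groups of *Cspg4*-positive cells by depth the log2 ratio was 0.42 (0.27 to 0.57) for *Acta2* and 0.37 (0.28 to 0.45) for *Tagln*, and in the deeper groups *Acta2* had 0.90 and 0.85. *Actg2*, with 18 and 71 UMIs, had -0.39 (-1.23 to 0.37) in the shallowest group. In cells without a *Mki67* or *Top2a* UMI the ratios were 1.26 for *Acta2*, 0.98 for *Tagln* and 2.14 for *Actg2*. Among the 410 *Cspg4*-positive cells without an *Acta2* UMI and 1230 cells matched to them, *Tagln* had 0.23 (0.12 to 0.33). *Actg2* had 4 and 24 UMIs there, a log2 ratio of -1.01 (-2.99 to 0.54), so its direction could not be read. Cells without *Acta2* were taken by a gene that itself differed between the groups, so these values are no check of the contractile genes.

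Other genes higher in *Cspg4*-positive cells fell into several kinds. *Prss23*, a secreted serine protease, had 200.2 CPM (195 to 206) against 121 CPM (119 to 123), a log2 ratio of 0.73 (0.68 to 0.77). *Fhl1*, a LIM-domain protein of muscle, had 115 against 72.5 CPM, a log2 ratio of 0.66 (0.60 to 0.72). *Aqp1*, a water channel, had 139 against 91.9 CPM and *Thbs1*, the matrix protein thrombospondin 1, 182 against 121 CPM, with log2 ratios of 0.60 and 0.59. All 4 were expressed in most cells of both groups, with a UMI in at least 58.5% of cells.

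Other named genes were rarer. *Elmod1*, *Fst*, *Cldn11* and *Moxd1* were measured through the *Cspg4*-positive cells only, and entered because more of those cells held a UMI. *Elmod1*, which belongs to a family of regulators of small GTPases, had 6.32 against 2.65 CPM, a log2 ratio of 1.3 (0.96 to 1.55). *Fst*, which encodes the activin-binding protein follistatin, had 20.5 against 10.2 CPM, a log2 ratio of 1.01 (0.85 to 1.17), and 38.3% of its UMIs in *Cspg4*-positive cells came from the top 1% of cells. With the UMIs of a cell capped at the 99th percentile it was 1.05. In the shallowest, middle and deepest of the 3 depth groups it was 2.31, 0.53 (0.29 to 0.76) and 0.95, so that in the middle group it lay within 1.5-fold. The claudins *Cldn11* and *Cldn1*, which form tight junctions, had log2 ratios of 0.92 (0.66 to 1.18) and 0.59 (0.47 to 0.71). *Moxd1*, related to copper-dependent monooxygenases, had 0.75, and -0.29 (-0.85 to 0.25) among cells without an *Acta2* UMI. *Flt1*, a receptor for VEGF, had 27.3 against 16.6 CPM, a log2 ratio of 0.71 (0.58 to 0.84).

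The 15 genes named on the lower side were led by *Igfbp3*, *Ccl8* and *Gda* in the order of their intervals. *Igfbp3*, a carrier of insulin-like growth factors, had 99.4 CPM (95.8 to 103) in *Cspg4*-positive and 163 CPM (160.1 to 166) in matched cells, which gave a log2 ratio of -0.71 (-0.77 to -0.65). At least 1 UMI was in 55.5% and 66.9% of cells. *Prl2c3*, a prolactin family hormone also called proliferin, had 78.8 against 120.4 CPM, a log2 ratio of -0.61 (-0.68 to -0.54). Near-identical family copies may affect its counts, which was not tested. *Il33*, an alarmin of the interleukin 1 family, had -0.68. With the UMIs of a cell capped at the 99th percentile *Il33* had -0.41, which lay within 1.5-fold. *Bmp7*, a bone morphogenetic protein, had -0.69 and *Ccl8*, a chemokine, -0.91 (-1.18 to -0.64). For *Ccl8*, measured through the matched cells only, the value was -0.25 (-0.83 to 0.29) in the deepest of the 3 depth groups.

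*Aldh1a2*, which makes retinoic acid, had 24.7 against 39.2 CPM, a log2 ratio of -0.67 (-0.79 to -0.55), and *Cyp26b1*, which degrades it, had 106 against 81.7 CPM, a ratio of 0.38 (0.32 to 0.44). These enzymes of opposite action thus lay on opposite sides. *Gda* (guanine deaminase) had -0.84, *Fmo1* (a flavin monooxygenase, measured through the matched cells only) -0.81, *Acpp* (an acid phosphatase) -0.79 and *Acss3* (an acyl-CoA synthetase) -0.66. *Fam84a*, *Add2* (adducin 2, of the membrane skeleton) and *Ccdc3* (a secreted protein) had between -0.73 and -0.59. *Lgi2* at -0.57 and *Trp53i11* at -0.54 were chosen by their intervals and lay within 1.5-fold.

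Chemokines were lower in sum, and the sum rested on the CC family. *Ccl2*, which attracts monocytes, had 205 CPM in *Cspg4*-positive and 272 CPM in matched cells, a log2 ratio of -0.41 (-0.45 to -0.37). *Ccl7* had 93.9 against 131 CPM, a ratio of -0.48 (-0.54 to -0.42). *Ccl11* and *Ccl5*, under the detection limit, had -1.0 and -1.01. Of the list's CXC genes, those named here lay elsewhere. *Cxcl1* had 0.28 (0.04 to 0.51), *Cxcl12* 0.12 and *Cxcl10*, under the detection limit, -0.01. *Il6*, which is in the list but is not a chemokine, had -0.07. The 11 genes summed to a log2 ratio of -0.37 (-0.40 to -0.34), with 0 of 5 measured genes past 1.5-fold and a median of -0.07. A *Ccl2* UMI was found in 66.2% (63.1 to 69.1) of *Cspg4*-positive and 75.8% (74.2 to 77.3) of matched cells.

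The S phase genes, which act in DNA replication, had small ratios above 0. All 18 measured S phase genes had a ratio above 0 with intervals above 0, where 2232 of all 9724 measured genes had such intervals, and 0 passed 1.5-fold. The list's median was 0.37 and its summed ratio 0.37 (0.35 to 0.40). *Rrm2*, a subunit of the enzyme that makes deoxynucleotides, was the most abundant with 67.8 against 46.5 CPM, a log2 ratio of 0.54 (0.46 to 0.62). *Ccne2* (cyclin E2) and *Mcm10* (a replication factor), which are not in that list, had 0.75 (0.58 to 0.92) and 0.76 (0.53 to 1.00), both past 1.5-fold. Among cells without a *Mki67* or *Top2a* UMI *Ccne2*, with 32 and 81 UMIs, had 0.24 (-0.40 to 0.85) and was no longer past it, and *Mcm10*, with 18 and 28, had 0.94.

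The 20 genes of G2 and mitosis all had ratios above 0 too, as did 6217 of all 9724 measured genes, with a median of 0.20 and a summed ratio of 0.19 (0.17 to 0.20). *Mki67* and *Top2a*, markers of cycling cells, had 0.27 and 0.33. A UMI of either was found in 60.6% (57.4 to 63.6) of *Cspg4*-positive and 53.9% (52.0 to 55.7) of matched cells. Among cells without such a UMI, 387 and 1161, the summed S phase ratio was 0.20 and that of G2 and mitosis 0.06. When cells were matched within those classes the values were 0.28 and 0.10. Of the cell cycle inhibitors, *Cdkn2a* had 415 against 499 CPM, a log2 ratio of -0.27 (-0.30 to -0.24), *Cdkn2b* -0.20 and *Cdkn1c* 0.37, while *Cdkn1a* was equal at 382 and 381 CPM. That list of 10 genes had 0 genes past 1.5-fold, a summed ratio of -0.05 and a median of 0.04.

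The classes of *Acta2* and of *Mki67* or *Top2a* were not exclusive. Cells with both kinds of UMI made up 37.1% (34.1 to 40.2) of *Cspg4*-positive and 28.3% (26.7 to 30.0) of matched cells. Cells with neither made up 18.3% (16.0 to 20.9) and 28.5% (26.8 to 30.1). Within the *Cspg4*-positive cells, the 207 with *Acta2* and no cycling UMI had the most *Tagln* (606 CPM) and *Thbs1* (345 CPM), and the 180 with neither had the most *Ccl2* (306 CPM) and *Igfbp3* (165 CPM) and the least *Tagln* (96.0 CPM). *Pdgfrb* lay between 36.9 and 49.8 CPM in all 4 classes. The classes differed in depth, with medians from 22382 to 32795 UMIs. Levels by class are not given for the matched cells, so these values do not set the *Cspg4*-positive cells apart.

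Other pericyte genes lay on both sides. Of the 20 pericyte genes 7 were measured, of which 3 had intervals above 0, 1 below 0 and 3 across 0. Of all 9724 measured genes, 2232 had intervals above 0 and 819 below 0. None of the 7 passed 1.5-fold, beside 0.288% of all measured genes that passed it higher and 0.165% lower. *Pdgfrb*, the PDGF receptor of pericytes, had 41.0 CPM (38.7 to 43.5) in *Cspg4*-positive and 43.5 CPM (42.1 to 44.9) in matched cells, a log2 ratio of -0.08 (-0.18 to 0.01), and a UMI in 60.0% and 61.6% of cells. The transcription factors *Tbx18*, *Foxf2* and *Foxc1* had -0.01, -0.02 and 0.09. *Cd248* (endosialin) had 36.4 against 27.7 CPM, a log2 ratio of 0.39 (0.29 to 0.50), and *Ndufa4l2*, a mitochondrial protein high in tissue pericytes, -0.27 (-0.39 to -0.14). *Notch3*, a receptor of mural cells, had 0.26 (0.08 to 0.44), and in cells with at least 2 *Cspg4* UMIs -0.19.

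The remaining pericyte genes were under the detection limit. *Mcam* (CD146) had 86 and 149 UMIs, a log2 ratio of 0.78 (0.38 to 1.18), and *Anpep* (aminopeptidase N) 53 and 150, a ratio of 0.08 (-0.40 to 0.54). *Ebf1* (a transcription factor) had -0.02, *Cox4i2* (a cytochrome oxidase subunit) -0.33 and *P2ry14* (a receptor for UDP-sugars) -0.64. *Des* (desmin) had 7 UMIs in *Cspg4*-positive cells, *Art3* 5, *Vtn* (vitronectin) 4 and *Kcnj8* (a channel subunit) 2. *Abcc9*, *Higd1b*, *Heyl* and *Atp13a5* had 0. The list as a whole summed to 370.3 against 361 CPM, a log2 ratio of 0.04 (0.01 to 0.07), with a median of -0.01. The sum was below 0 without matching (-0.04), in cells thinned to 9500 UMIs without and with matching (-0.10 and -0.02), in the shallowest depth group (-0.02) and in cells without an *Acta2* UMI (-0.08), so no direction is read from it. The cells are therefore called by their rule, *Cspg4*-positive, and by no narrower cell type.

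**Figure D3:**
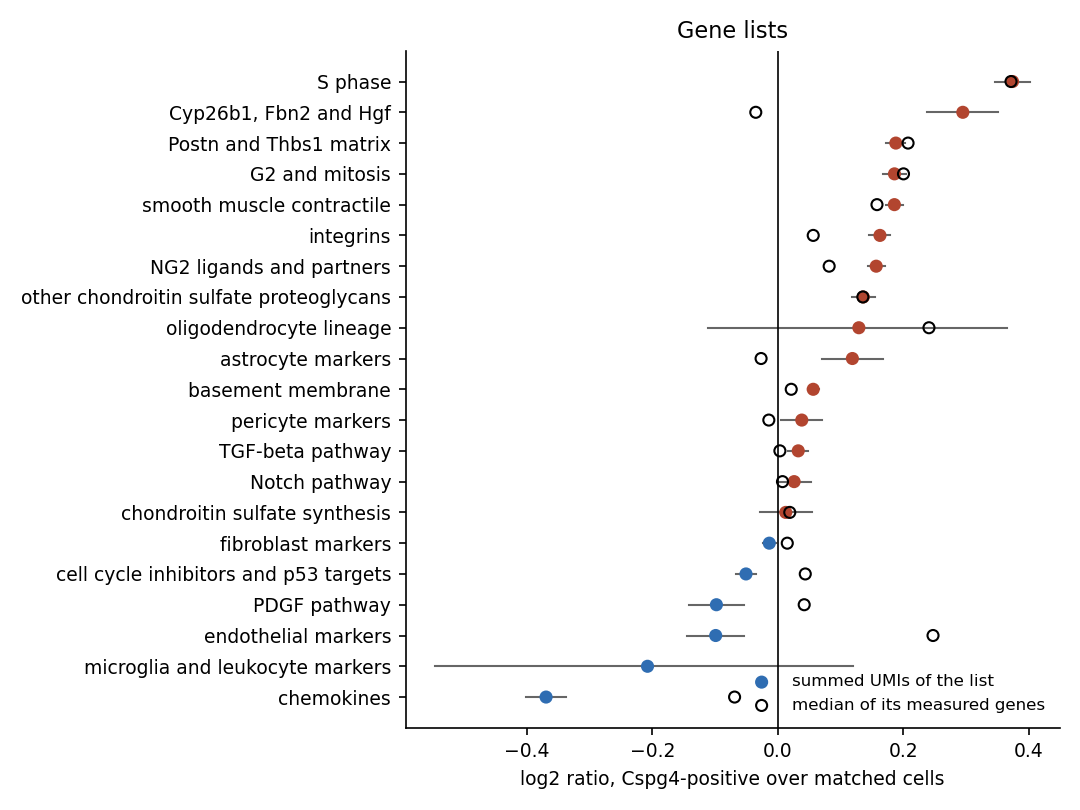
The log2 ratio of *Cspg4*-positive over matched cells for 21 gene lists. Filled points with bars are ratios of the summed UMIs with 95% counting intervals, open circles the median of a list's measured genes (none was measured for microglia and leukocytes), and the summed ratio runs from 0.37 for S phase to -0.37 for chemokines.

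*Cspg4* is also a marker of oligodendrocyte precursors, whose defining genes were absent or nearly so. In *Cspg4*-positive cells *Sox10*, *Olig2*, *Gpr17*, *Nkx2-2*, *Mag* and *Mobp* had 0 UMIs and *Olig1* 1. *Ptprz1* had 1 and *Lhfpl3* 2. *Cspg5* had 50 and *Mbp*, the most abundant of the 12, had 122, with log2 ratios of 0.10 and 0.24 (-0.07 to 0.55) over matched cells. The list summed to 7.25 against 6.63 CPM, a log2 ratio of 0.13 (-0.11 to 0.36).

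Markers of other cells that a brain culture could hold gave no common direction. Of 4 measured endothelial genes 1, *Flt1*, passed 1.5-fold higher, beside 0.288% of all measured genes. Of 8 endothelial genes, *Cdh5* (VE-cadherin) was the most abundant with 134 against 162 CPM, a log2 ratio of -0.27, whereas *Flt1* and *Kdr*, both VEGF receptors, had 0.71 and 0.37, and *Egfl7* had 0.12. *Pecam1* had 13 UMIs and *Cldn5* 3 in *Cspg4*-positive cells. The list summed to 185 against 198 CPM, a ratio of -0.10, and without *Cdh5* it was 0.50. The 6 microglial and leukocyte genes summed to 3.55 against 4.10 CPM, with *Cx3cr1* the most abundant and *Ptprc*, *Cd48*, *Adgre1* and *P2ry12* at 0 UMIs in *Cspg4*-positive cells. Of the 6 astrocyte genes *Slc4a4*, a bicarbonate transporter, made up most, with 162 against 146 CPM, and *Gfap* and *Aqp4* had 0 UMIs in *Cspg4*-positive cells. The matched cells held 38 *Gfap* UMIs, in 0.136% of cells, and 2 of *Aqp4*. The astrocyte list had 171 against 157 CPM, a log2 ratio of 0.12 (0.07 to 0.17), and without *Slc4a4* -0.25.

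Of the fibroblast genes, the collagens *Col1a1*, *Col1a2* and *Col3a1* were found in nearly all cells. They had log2 ratios between -0.07 and 0.04, with a UMI in at least 98.6% of cells of either group. *Pdgfra*, the other PDGF receptor, had 60.8 against 81.8 CPM, a log2 ratio of -0.43 (-0.51 to -0.35), and a UMI in 67.2% (64.1 to 70.1) against 75.1% (73.5 to 76.7) of cells. *Dcn* (decorin), with a UMI in 30.5% of *Cspg4*-positive cells, had -0.31 (-0.42 to -0.20) and *Fbln1* (fibulin 1) 0.29 (0.20 to 0.39). None of 7 measured genes passed 1.5-fold, and the 9 genes summed to 3556 against 3590 CPM. *Pdgfra* and *Pdgfrb* were found together in 44.3% of *Cspg4*-positive and 48.3% of matched cells.

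RNA of the listed ligands and partners of NG2 was found among the *Cspg4*-positive cells, in shares that differed widely. A UMI was in 1.12% of these cells for *Grip1* and in 99.7% for *Itgb1*. The matrix ligand collagen VI was at equal level, with log2 ratios of 0.06 for *Col6a1*, 0.02 for *Col6a2* and -0.07 for *Col6a3*, and *Col5a1* at -0.01. Of the integrin chains that pair with NG2, *Itgb1* had 868 against 733 CPM, a log2 ratio of 0.24 (0.22 to 0.26), and *Itga3* 20.5 against 22.0 CPM, a ratio of -0.11 (-0.24 to 0.03). *Lgals3* (galectin 3) had 0.19 (0.12 to 0.26), *Tnc* (tenascin C) 0.19 and the growth factors *Pdgfa* and *Fgf2* 0.17 and 0.06.

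Inside the cell, the PDZ proteins *Sdcbp* (syntenin) and *Mpdz* had 0.09 and 0.07, and *Grip1* had 11 UMIs in *Cspg4*-positive cells. The proteases *Mmp14* and *Adam10*, which shed membrane proteins, had 0.15 (0.09 to 0.21) and 0.10 (0.06 to 0.14). In all, 0 of 14 measured partners passed 1.5-fold, beside 0.288% and 0.165% of all measured genes higher and lower, and 11 had a ratio above 0, beside 6217 of 9724. The list summed to a log2 ratio of 0.16 (0.14 to 0.17), and without *Itgb1* to 0.10.

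Enzymes that build chondroitin sulfate had a summed log2 ratio of 0.01 (-0.03 to 0.05). Of 15 measured genes 1 had an interval above 0 and 1 below 0, beside 2232 and 819 of all 9724 measured genes. None of the 15 passed 1.5-fold, beside 0.288% higher and 0.165% lower of all measured genes. *Chst15*, a sulfotransferase, stood furthest out at -0.54 (-0.71 to -0.38), and *Chst12*, another, had 0.25. Among other chondroitin sulfate proteoglycans *Cd44*, the hyaluronan receptor, had 456 against 354 CPM, a log2 ratio of 0.36 (0.33 to 0.39), *Vcan* (versican) 0.14 and *Bgn* (biglycan) -0.03. The 10 genes summed to 0.14, and without *Cd44* to 0.01.

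Matrix and signalling lists held few larger differences. The 13 basement membrane genes summed to 0.06, with *Nid1* (nidogen 1) at 1780.4 against 1675 CPM, *Nid2* at 0.31 (0.16 to 0.46) and *Lama4* (laminin alpha 4) at -0.20. Integrins summed to 0.16, and without *Itgb1* to 0.05. In the list of *Postn* and *Thbs1* matrix genes, *Thbs1* alone of 8 measured genes passed 1.5-fold, beside 0.288% of all measured genes. *Ctgf* and *Lox*, a growth factor of the matrix and a collagen cross-linker, had 0.31 and 0.30, and *Postn* (periostin) and *Thbs2* had -0.09 and -0.31. The 12 Notch genes summed to 0.03 with 0 of 6 past 1.5-fold.

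TGF-beta genes summed to 0.03 with 0 of 15 past 1.5-fold, where *Smad3*, a signal transducer, had -0.42 (-0.55 to -0.30). PDGF genes summed to -0.10 with 0 of 4 past 1.5-fold, and *Pdgfb*, the ligand made by endothelium, had 0 UMIs in *Cspg4*-positive cells. The 3 genes *Cyp26b1*, *Fbn2* (fibrillin 2) and *Hgf* (hepatocyte growth factor) summed to 0.29 (0.24 to 0.35), and without *Cyp26b1* to -0.06.

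Many of the named genes had ratios further from 0 in cells with more *Cspg4* UMIs, as did many other genes. Of the 15 genes named on the higher side 12 had a higher ratio in cells with at least 2 *Cspg4* UMIs than in cells with 1, and of the 15 on the lower side 13 had a lower one. Of all measured genes with a ratio above 0 that was so for 55.7%, and of those below 0 for 65.1%, in a comparison of only 164 cells in which ratios spread more widely. Steps in the same direction from 1 to 2 and to at least 3 UMIs were seen for 7 and 6 of the named genes. It was so for 22.9% and 28.3% of all measured genes above and below 0. The classes are cut by the UMIs that the rule itself used. The named genes were picked by ratios that include the cells with at least 2 UMIs. Of these genes *Elmod1*, *Actg2*, *Fst*, *Cldn11* and *Moxd1* were measured through the *Cspg4*-positive cells only. These counts therefore describe the selected cells, and no graded relation with *Cspg4* is read from them. In cells with 1, 2 and at least 3 *Cspg4* UMIs, each beside its own matched cells, the log2 ratio of *Acta2* was 0.64 (0.56 to 0.71), 1.20 (1.03 to 1.37) and 1.48 (1.19 to 1.77). *Fhl1* had 0.56, 0.90 and 1.30 and *Prss23* 0.67, 0.74 and 1.39. *Tagln* had 0.52, 1.04 and 0.91 and *Aqp1* 0.55, 0.48 and 1.5, so not every gene had its highest value in the same order. *Ccne2* went the other way, with 0.83, 0.55 and 0.36 (-0.36 to 1.05), and *Fst* had 0.91, 1.48 and 0.43 (-0.33 to 1.15).

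On the lower side the chemokine list had -0.31 (-0.35 to -0.28), -0.61 (-0.71 to -0.51) and -1.03 (-1.22 to -0.83), *Prl2c3* -0.52, -0.92 and -2.0 and *Igfbp3* -0.66, -1.0 and -1.02. *Aldh1a2* came closer to 0, with -0.70, -0.52 and -0.29 (-0.90 to 0.29). *Il33* had -0.56, -1.54 and -0.73, *Ccl8* -0.82, -2.3 and -0.75 and *Fmo1* -0.92, -0.14 and -1.01, with no common order. *Thbs1* changed sides, with 0.63, 0.95 and -1.02 (-1.29 to -0.77). The S phase list had 0.39, 0.24 and 0.47 and *Pdgfrb* -0.06, -0.15 and -0.29 (-0.81 to 0.20), with no such steps beyond the intervals for *Pdgfrb*. The last class held 40 cells with a median of 35347 UMIs, against 27194 in the 817 cells with 1 UMI.

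**Figure D4:**
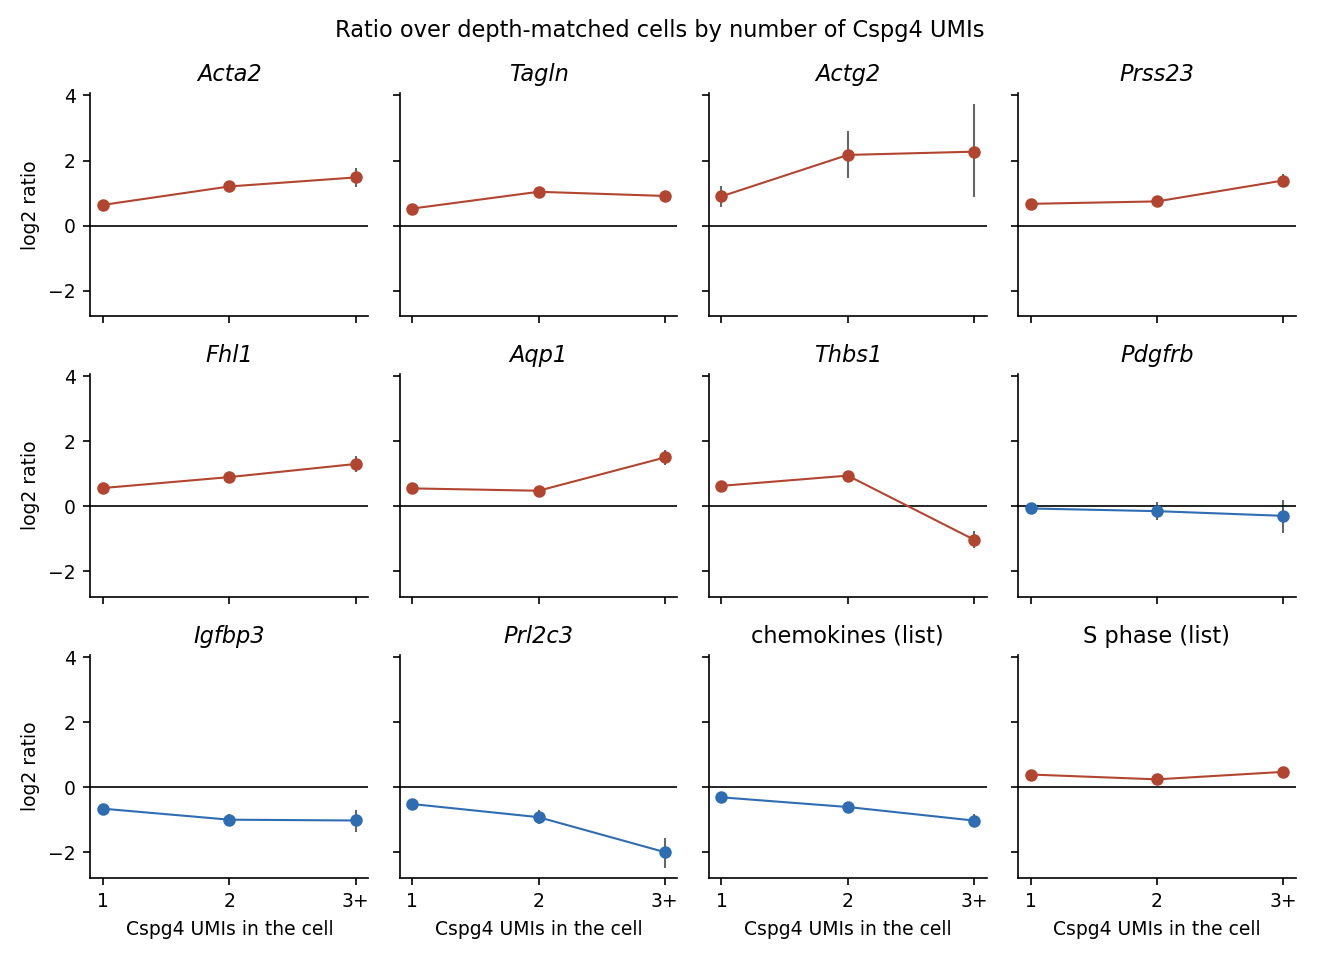
The log2 ratio over depth-matched cells (y axis) for *Cspg4*-positive cells with 1, 2 and 3 or more *Cspg4* UMIs (x axis), for 10 genes and 2 gene lists, with 95% counting intervals. Red marks a positive and blue a negative ratio in cells with 1 UMI, and *Acta2* runs from 0.64 to 1.48 while the chemokine list runs from -0.31 to -1.03.

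Read the other way, over all kept cells without *Rgs5* UMIs, the *Cspg4* level varied with the same lists. This uses the same cells and adds no independent evidence. The cells were cut into 4 equal groups by the level of a list, and from the lowest to the highest group for contractile genes *Cspg4* went from 3.38 CPM (2.88 to 3.94) to 7.81 CPM (7.09 to 8.58). For S phase genes it went from 3.31 to 8.29 CPM, and for NG2 partners from 3.65 to 7.79 CPM. For chemokines it went the other way, from 7.88 CPM (7.14 to 8.69) to 3.69 CPM (3.18 to 4.26). Over the 4 groups by pericyte genes it was flat, between 5.36 and 5.76 CPM. The groups were not matched in depth, with medians of 18972 and 25614 UMIs in the lowest and highest for S phase, and the part of depth was not tested.

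**Figure D5:**
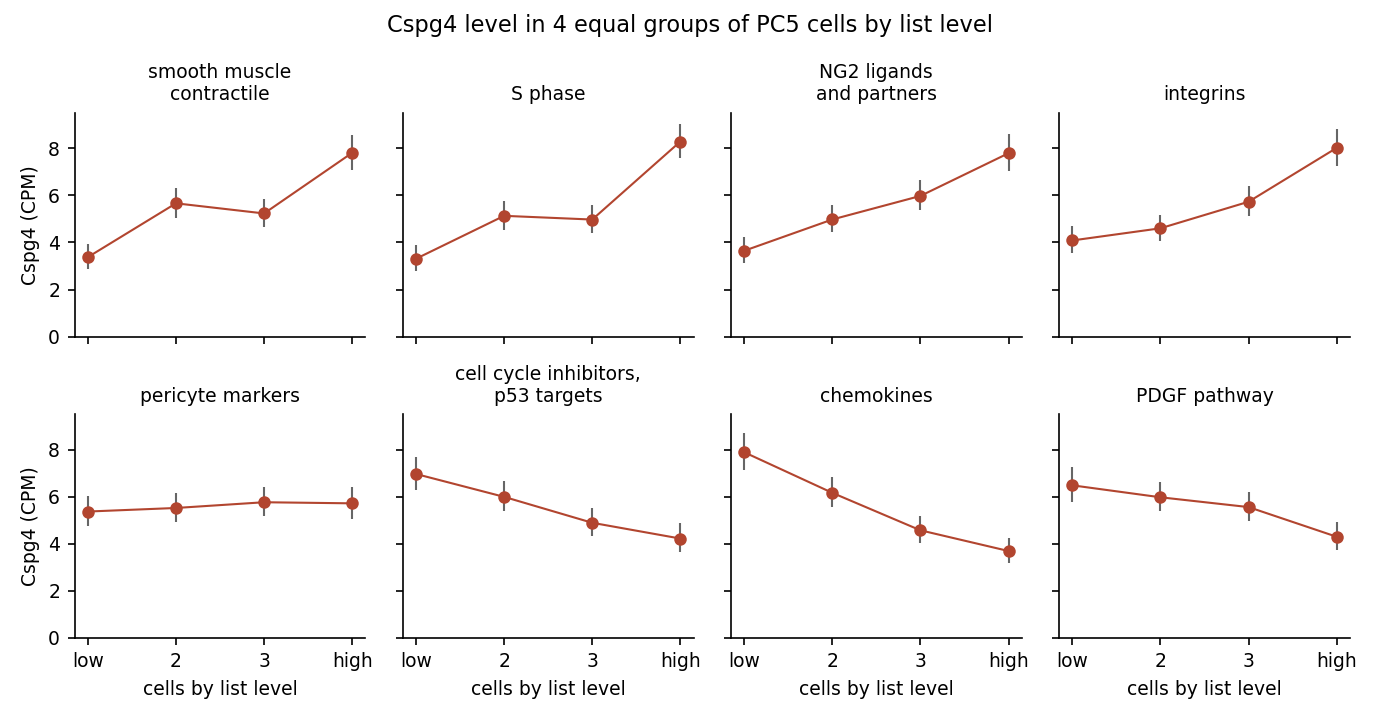
*Cspg4* level in CPM (y axis) in 4 equal groups of the kept PC5 cells without *Rgs5* UMIs, ordered by the level of each of 8 gene lists (x axis, low to high). Bars are 95% counting intervals, and the level goes from 3.38 to 7.81 CPM for contractile genes, from 7.88 to 3.69 CPM for chemokines and stays between 5.36 and 5.76 CPM for pericyte markers.

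The neighbours of *Cspg4* on chromosome 9 were near equal. Of the measured genes within 200 kb, *Imp3*, *Snx33*, *Ptpn9*, *Sin3a* and *Snupn* had log2 ratios of at most 0.16 in size, and *Lingo1* had 0.07 (-0.25 to 0.37).

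In PC20, where *Cspg4* was at 0.0994 CPM, the genes higher in *Cspg4*-positive PC5 cells had no common level. *Actg2* and *Elmod1* had 0 UMIs and *Tagln* 0.230 CPM, while *Acta2* had 49.2 CPM, *Flt1* 73.9 CPM and *Fst* 66.4 CPM. Of the genes on the lower side, *Ccl8* and *Bmp7* had 1 UMI each and *Igfbp3* 38.4 CPM. The values stand side by side with no test.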

How the data were processed

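For every gene in every barcode the authors deposited counts of UMIs, made with Cell Ranger 5.0 on the mm10 genome, without normalization. PC5 held 223978480 UMIs in 10629 barcodes and PC20 191306354 in 4884, with 31053 genes listed, of which 31011 identifiers were in GENCODE mouse release M21. Cells were kept by the filter of the study's methods, more than 1000 genes and under 20% mitochondrial UMIs. No doublets were removed. Matching used total UMIs, nearest first and without replacement. Sums, ratios and exact intervals were computed in Python 3.11.15 with numpy 2.4.6 and scipy 1.17.1, with no pseudocount, and the functions were tested on simulated data. The genes named are the 15 with the highest lower bound and the 15 with the lowest upper bound of the interval among measured genes, without pseudogenes, unnamed gene models or mitochondrial and ribosomal protein genes. Members of the gene lists are named besides, and some are among the 30. The cells, the lists and this rule were chosen with earlier results of these data known, so no pattern here is independent support for those. With 1 library per passage no test was possible. Alternatives changed the matching, depth, cell filter, detection limit, threshold and scaling. Capping a gene's UMIs per cell, thinning with the matching kept and leaving out cells with an *Acta2* UMI were chosen after the data were seen. PC20 entered only as values beside PC5. Single values of 2 list genes are not reported here, and both stay in their lists' sums.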

Additional observations from a re-analysis of the deposited data

How the results depend on the processing

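Of the 30 genes with the most distant intervals, 28 kept the sign of their log2 ratio under all alternatives run, and 536 of 539 values had the same sign. The exceptions were *Actg2*, with -0.39 in the shallowest of 3 depth groups and -1.01 among cells without an *Acta2* UMI, and *Moxd1*, with -0.29 among the latter. *Cnn1*, below the detection limit, also had -1.01 among cells without an *Acta2* UMI. All 4 intervals include 0, and *Actg2* had 4 and *Cnn1* 1 UMI in the 410 *Cspg4*-positive cells without *Acta2*. The 30 genes were picked for intervals far from 0 in these cells, and the alternatives reuse the same or overlapping cells. Some of the 30 were measured through 1 group only. Kept signs are thus no independent support, and the share of all measured genes that kept theirs was not computed. *Notch3* had -0.19 with at least 2 *Cspg4* UMIs, *Myl9* -0.22 and *Foxc1* -0.09 without an *Acta2* UMI, and *Myl9* and *Mki67* lay just under 0 in the shallowest group. Of the 21 list sums 14 kept their sign under all 17 alternatives. The 7 others, all within 0.21 of 0, were the pericyte, fibroblast, oligodendrocyte, microglial, chondroitin sulfate synthesis, cell cycle inhibitor and TGF-beta lists.

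The numbers of genes past the threshold depended on the setting. The 28 higher and 16 lower genes became 86 and 48 without matching, 53 and 39 with cells thinned to 9500 UMIs and not matched, 300 and 266 with at least 2 *Cspg4* UMIs, and 74 and 57 among cells without a *Mki67* or *Top2a* UMI. They were 151 and 54, 71 and 52, and 80 and 51 in the shallowest, middle and deepest of 3 depth groups. These subsets hold fewer UMIs per gene, and the cause was not tested. The numbers were 296 and 122 past a log2 ratio of 0.32, 3 and 0 past 2-fold, 9 and 6 with a UMI in at least 25% of cells, 59 and 37 with at least 5%, and 0 and 0 with a pseudocount of 1 on means per 10000. Among cells without an *Acta2* UMI 52 were higher. With thinned cells that kept their matching they were 24 and 11. The other settings left both numbers within 1.5 times.

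The share of *Cspg4*-positive cells was 4.41% after thinning, 1.65% with at least 2 *Cspg4* UMIs and 9.04% without the deepest 5% of cells. No paired analysis was possible because each passage has 1 library. With 1 *Cspg4* UMI in 817 of 981 cells, a cell with 0 may still express the gene, and depth limits what the rule can separate.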
